A study of Saccharomyces cerevisiae with 2 samples.

Results

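PHO3, PHO5, PHO11 and PHO12 are the 4 genes of budding yeast, Saccharomyces cerevisiae, that encode its secreted acid phosphatases. They were taken by gene name from the gene spots of both arrays and make up 4 of the 6256 genes measured and 6 of the 10263 gene spots on each array. RNA of wild-type cells was compared with RNA of cells lacking YDR374C, which encodes the YTH-domain protein Pho92. Both strains were in the haploid laboratory background BY4741, were grown in SD, a synthetic defined glucose medium, and were taken in mid-exponential phase at an OD600 of 0.7. On each of 2 two-colour arrays, made from 0.2 ug of total RNA, Cy3 (green) marked the wild-type RNA and Cy5 (red) the deletion RNA, with no dye swap. How the deletion was made, how many clones were used and whether the arrays hold separate cultures are not given in the sources used here. A p-value from limma here rests on how far these 2 arrays differ, over all genes together as well as for the gene itself. The scanner software's p-value rests on its own error of each spot. Either spread may be technical.

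Acid phosphatases are heavily glycosylated enzymes of the yeast periplasm and cell wall that free phosphate from organic phosphates outside the cell. PHO5, PHO11 and PHO12 are switched on when phosphate is scarce: the cyclin and kinase pair Pho80-Pho85 then no longer holds the transcription factor Pho4 out of the nucleus, and Pho4 acts at their promoters together with Pho2. PHO3 lies next to PHO5 but answers to another signal, since it is repressed by thiamine and its enzyme frees thiamine from thiamine phosphates before uptake. PHO11 and PHO12 lie near the ends of chromosomes I and VIII and encode nearly identical proteins, and PHO3 and PHO5 are also close relatives. Probe sequences were not used here, so whether each probe detects only the RNA of its own gene was not tested.

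The median gene spot had a mean signal of 1597 (green) and 2105 (red) on array 1 and of 2371 and 3105 on array 2, against negative controls between 126 and 183. On both arrays every spot of the 4 acid phosphatases read well above background in green and in red, and none was saturated. The probe of YDR374C kept a signal in the red channel: 1 of its 2 spots had processed signals on array 1 of 271 in green and 223 in red, and on array 2 of 247 and 238, and the other was not well above background. Its log2 ratio was -0.23 and was called lower (limma adjusted p = 2.74e-05, n = 2). That call ended with the scanner software's log ratio (limma adjusted p = 0.0879) and with the series table (limma adjusted p = 0.0813). The deletion label could not be checked by this probe. The name "RNA labelled as deletion" is used for the red RNA for this reason, and directions rest on the dye labels alone. BY4741 lacks URA3, LEU2 and MET17 and part of HIS3, and all spots of these 4 genes had processed signals between 9.13 and 235. Every URA3 and HIS3 spot nevertheless passed the scanner software's background test in green and in red each time, and URA3 was called higher by limma, at 0.33 ± 0.04 on the log2 scale (adjusted p = 2.09e-06, n = 2).

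PHO5, PHO11 and PHO12 were all higher in the RNA labelled as deletion, by 3.75-fold, 2.96-fold and 2.34-fold, and each of their spots showed it on both arrays. PHO3 was higher by 1.35-fold on array 1 and by 1.53-fold on array 2, the smallest ratio of the 4. Among 5641 genes tested with limma, PHO5 had the 2nd, PHO11 the 3rd and PHO12 the 5th highest ratio. The levels below are processed signals, the scanner software's background-subtracted and dye-normalised intensities. The ratios are log2 of red over green after normexp background correction and loess normalisation within each array. Each SE of a ratio is limma's moderated standard error, which draws on the spread of all genes as well as on that gene's 2 arrays.

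PHO5, the main secreted acid phosphatase, has 2 spots. Spot 1 had processed signals of 394 in wild type and 1621 in the RNA labelled as deletion on array 1, and of 480 and 1938 on array 2. Spot 2 had 310 and 1334 on array 1, and 422 and 1921 on array 2. All red signals of PHO5 lay above all green ones, and the lowest red signal was that of spot 2 on array 1. Averaged over spots, the level was 402 ± 70.1 (SD, n = 2) in wild type and 1703 ± 320 in the RNA labelled as deletion. The log2 ratio was 1.88 on array 1 and 1.93 on array 2, with a mean of 1.91 ± 0.04 (SE, n = 2; limma adjusted p = 3.86e-14).

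PHO11 also has 2 spots. On array 1 the processed signals were 1617 (wild type) and 4881 (deletion label) in spot 1 and 1393 and 4427 in spot 2. On array 2 they were 1943 and 5687 in spot 1 and 1912 and 5661 in spot 2. The 4 red signals again lay above the 4 green ones. The mean level was 1716 ± 299 (SD, n = 2) in wild type and 5164 ± 721 in the RNA labelled as deletion. The log2 ratio of PHO11 was 1.60 on array 1 and 1.53 on array 2, with a mean of 1.56 ± 0.04 (SE, n = 2; limma adjusted p = 2.37e-13).

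PHO12, the near copy of PHO11, has 1 spot. It read 946 in wild type and 2364 in the RNA labelled as deletion on array 1, and 1128 and 2618 on array 2. The mean levels were 1037 ± 129 (SD, n = 2) and 2491 ± 180, with no overlap between the channels. The log2 ratio of PHO12 was 1.28 on array 1 and 1.17 on array 2, with a mean of 1.22 ± 0.04 (SE, n = 2; limma adjusted p = 6.73e-12).

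PHO3, the thiamine-repressed member, also has 1 spot, and on array 2 the scanner software marked its red channel as non-uniform. The spot read 3472 in wild type and 4669 in the RNA labelled as deletion on array 1, and 3200 and 4939 on array 2. The mean levels were 3336 ± 192 (SD, n = 2) and 4804 ± 191, and here too both red signals were above both green ones. Because marked spots were left out, PHO3 had a ratio on array 1 only (log2 0.43) and was not tested. With the marked spot kept, its log2 ratios were 0.43 and 0.61, with a mean of 0.52 ± 0.04 (SE, n = 2), or 1.44-fold (limma adjusted p = 1.19e-07). The standard error of PHO3 from its own 2 arrays alone was 0.092, larger than the moderated one. The ratio of PHO3 differed between the arrays by 0.18, more than for 96.9% of 6146 genes, whose median difference was 0.05, and more than for the other 3 members, whose arrays differed by 0.05 to 0.10.

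**Figure D1:**
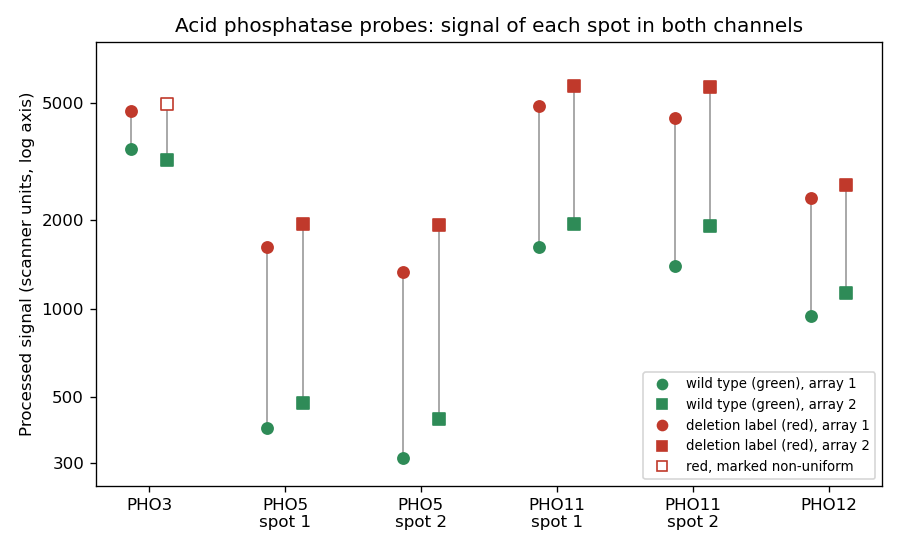
Processed signal (scanner units, log axis) of each acid phosphatase spot in wild type (green) and in the RNA labelled as deletion (red), with a line joining the channels of a spot on 1 array. Every red point is above the green point of its spot, with the longest lines for PHO5 and the shortest for PHO3, and the open square is the PHO3 spot marked as non-uniform in red.

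Separation of the channels was not rare in itself. Of the 5641 genes tested, 18.8% had both red signals above both green ones (19.3% of 6146 with marked spots kept). By limma's adjusted p, 36.4% of genes were higher in the RNA labelled as deletion, and the same 36.4% with marked spots kept, a background against which the call of PHO3 at the threshold of 0.05 has to be read. URA3, a gene that BY4741 lacks, passed the same threshold. How the deletion was made is not given, so whether URA3 is also absent from the deletion strain is not known. The ratios of PHO5, PHO11 and PHO12 lay among the 8 genes, 0.142% of those tested, that were higher with a log2 ratio of at least 1. Against a 1.5-fold change these 3 genes passed as well (limma treat, adjusted p = 3.44e-12 for PHO5, 8.66e-11 for PHO11 and 2.77e-08 for PHO12), as did 0.709% of all genes tested. The scanner software's own p of the ratio was below 0.01 for every kept spot on both arrays in 2.55% of genes, PHO5, PHO11 and PHO12 among them. For PHO3 that p was 0.0397 on array 1 and 0.00314 on array 2. The members, and the gene lists below, were chosen with earlier results of these data known. Their ranks and shares are therefore descriptions and not tests.

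Because dyes were not swapped, a fixed dye effect of a probe would add to its ratio and was not tested. The median gene spot was brighter in red before normalisation, with a median log2 ratio of raw signals of 0.40 on array 1 and 0.39 on array 2. The raw log2 ratios of the 4 PHO5 readings ran from 2.13 to 2.26, those of PHO11 from 2.01 to 2.09, those of PHO12 were 1.65 and 1.54, and those of PHO3 were 0.99 and 1.15. The 4 genes therefore stood in the same order before any correction.

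The spots of a probe lie far apart on the array, which allows a check of position. The 2 PHO5 spots differed in log2 ratio by 0.03 on array 1 and 0.14 on array 2, and the 2 PHO11 spots by 0.07 and 0.01. Over 3545 and 3450 probes with 2 kept spots, the median of this difference was 0.07 on array 1 and 0.06 on array 2 and its 95th percentile 0.22 and 0.20. The gene spots within 5 rows and 5 columns of an acid phosphatase spot, between 100 and 114 of them, had median log2 ratios between 0.00 and 0.07. These medians showed no raised area of that size around an acid phosphatase spot. A smaller local effect was not tested, and PHO12 and PHO3, with 1 spot each, allow no comparison of 2 positions.

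In 2 places a spot of another gene with a log2 ratio of at least 1 on both arrays was within that distance. The PHO3 spot lies beside spot 2 of PHO5, in the next column of the same row, where the PHO5 log2 ratio was 1.89 on array 1 and higher on array 2. The PHO12 spot lies 1 row and 1 column from a spot of SPL2, with 1.12 and 1.19. Whether signal passed between adjacent spots was not tested.

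**Figure D2:**
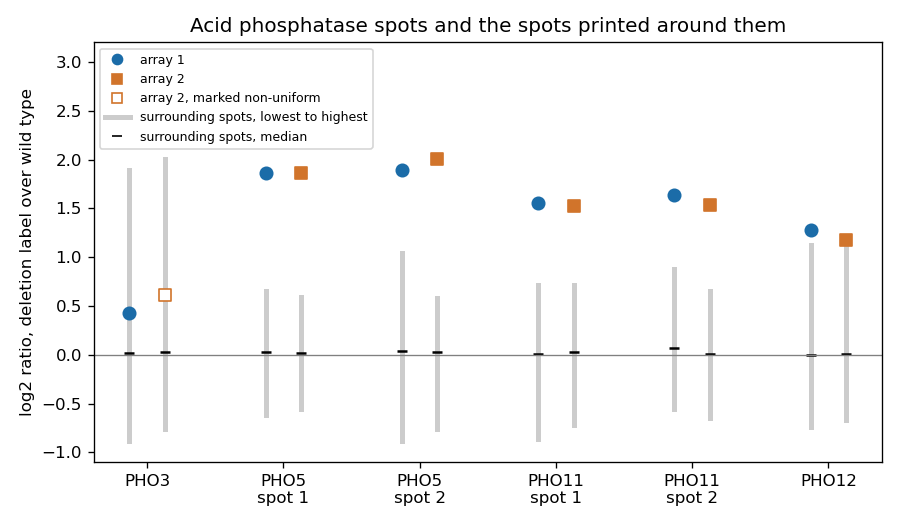
Log2 ratio (RNA labelled as deletion over wild type) of each acid phosphatase spot on array 1 (circles) and array 2 (squares), over the range (grey bars) and median (dashes) of the gene spots within 5 rows and 5 columns. The medians around the spots stay between 0.00 and 0.07, and the tops of the grey bars at PHO3 and PHO12 are the adjacent PHO5 and SPL2 spots.

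The ratios formed an order, PHO5 above PHO11, PHO11 above PHO12 and PHO12 above PHO3, that every spot kept on both arrays. The lowest PHO5 spot (1.86) was above the highest PHO11 spot (1.63), the lowest PHO11 spot (1.53) above the PHO12 values of 1.28 and 1.17, and these above PHO3 at 0.61 and 0.43. PHO5 exceeded PHO11 by 0.28 on array 1 and 0.40 on array 2, a mean difference in log2 ratio of 0.34 ± 0.08 (SD, n = 2). PHO11 exceeded PHO12 by 0.32 and 0.36, with a mean of 0.34 ± 0.03 (SD, n = 2), although their genes are near copies. Each gene was read by 1 probe, and this SD covers only the repeat of the same probes on both arrays. Whether the step lies in the probes or in the RNA was not tested. PHO12 exceeded PHO3, with its marked spot kept, by 0.84 and 0.56, with a mean of 0.70 ± 0.20 (SD, n = 2).

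These gaps between neighbours in the order were larger than the differences between arrays of either gene. An exact sign-flip test over 2 arrays cannot give a two-sided p below 0.5, so the 6 differences between pairs of members have no usable p-value. By the scanner software's own error of a spot, between 0.23 and 0.29 on the log2 scale for PHO5, PHO11 and PHO12, the steps from PHO5 to PHO11 and from PHO11 to PHO12 are not much larger than the error of 1 spot. A step carries the errors of both its genes, and that combined error was not computed. The order held under all 18 alternative settings for PHO5, PHO11 and PHO12, and under all 5 that gave a value for PHO3. PHO5 was ahead of PHO11 by 0.22 to 0.49 and PHO11 ahead of PHO12 by 0.32 to 0.43. Settings that changed only flags, filters, prior or the tested fold change left the ratios of PHO5, PHO11 and PHO12 exactly as reported. Those settings could not alter the order. Some of the others repeated the ratios of another setting, so the 18 are not separate checks of the order.

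**Figure D3:**
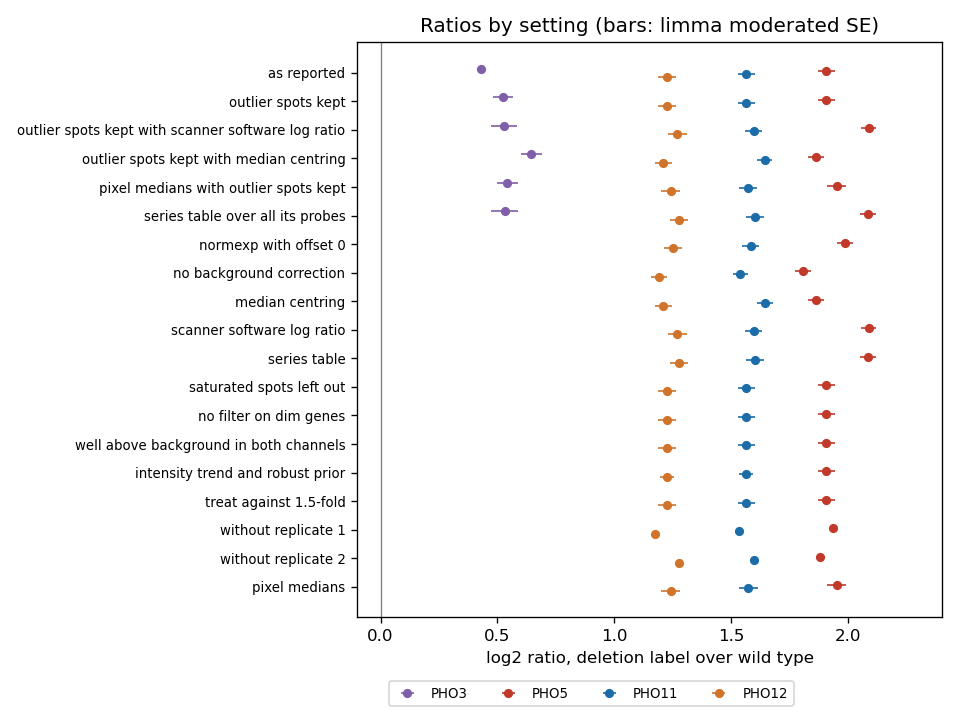
Log2 ratio (RNA labelled as deletion over wild type, horizontal axis) of the 4 acid phosphatases under each processing setting (rows), with limma's moderated SE as bars where there is a test. PHO5 stays between 1.80 and 2.09, PHO11 between 1.53 and 1.64 and PHO12 between 1.17 and 1.28, and PHO3 has its array 1 value of 0.43 in the top row and 0.52 to 0.64 where marked spots were kept.

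DIA3, a further gene of the acid phosphatase family that is known for a role in invasive growth, was slightly lower instead. Its log2 ratio was -0.19 on array 1 and -0.10 on array 2, a mean of -0.15 ± 0.04 (SE, n = 2; limma adjusted p = 0.00204), and 36.7% of all genes tested were lower by this test. Against a 1.5-fold change DIA3 did not pass.

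The tested genes whose pair of log2 ratios on the 2 arrays was nearest to that of an acid phosphatase were few, since 5 of 5641 genes (0.0886%) reached the ratio of PHO12. Nearest to PHO5 was GLC7, the catalytic subunit of protein phosphatase 1, with 2.03 on array 1 and 1.85 on array 2, at a Euclidean distance of 0.18. SPL2, a regulator of the low-affinity phosphate transporters, was the nearest to PHO12 at a distance of 0.15. Next to PHO12 came the polyphosphate synthesis subunit VTC3 (1.07 and 1.06, distance 0.24) and HGH1 (1.05 and 1.08, distance 0.25). The 8 genes with a log2 ratio of at least 1 thus included 3 acid phosphatases and 2 other Pho4 targets, SPL2 and VTC3. These counts and ranks cover tested genes only. PHO84, also a Pho4 target, was left out for a marked spot and had a mean of 1.34 with that spot kept, above PHO12.

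**Figure D4:**
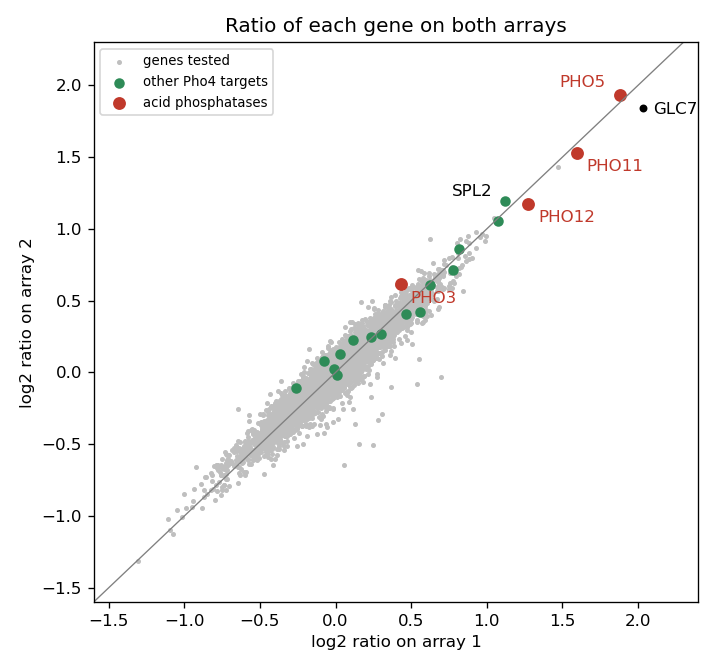
Log2 ratio (RNA labelled as deletion over wild type) of each tested gene on array 1 (horizontal) and array 2 (vertical), with the acid phosphatases in red, other Pho4 targets in green and the line of equal ratios; PHO3 is drawn with its marked spot kept. PHO5, PHO11 and PHO12 lie at the upper end of the cloud close to the line, and PHO3 (0.43 and 0.61) lies above the line at the edge of the main cloud.

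The other targets of Pho4, among them transporters of phosphate and enzymes of vacuolar polyphosphate, were next compared with the acid phosphatases in the same fit. Of 17 listed genes 15 were tested, 10 were higher, 1 was lower and 4 did not pass, with a median log2 ratio of 0.29 against -0.00 over all genes tested, of which 36.4% were higher and 36.7% lower. The ratio of none of the 15 reached that of PHO12. The nearest were SPL2 (1.16 ± 0.04, SE, n = 2), VTC3 (1.06 ± 0.03) and PHO86 (0.84 ± 0.04), which helps phosphate transporters leave the endoplasmic reticulum. VTC1, VTC4, PHM8, PHO89, PPN1, PHM6 and CTF19 were higher by 0.17 to 0.74. Against a 1.5-fold change SPL2, VTC3, PHO86 and VTC1 were still higher (limma treat), as were 0.709% of all genes tested. VTC4, PHM8, PHO89, PPN1, PHM6 and CTF19 did not pass against that change.

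The high-affinity phosphate transporter PHO84 was not tested, because its spot was marked on array 2. With that spot kept its log2 ratios were 1.39 and 1.30, with a mean of 1.34 ± 0.04 (SE, n = 2; limma adjusted p = 1.47e-11), between those of PHO11 and PHO12. GDE1, a glycerophosphodiesterase, was left out for the same reason on array 1 and had -0.25 ± 0.03 with the spot kept. The targets that did not pass included PHO81 (0.01 ± 0.03), the inhibitor of Pho80-Pho85, and PHO8 (0.00 ± 0.04), the vacuolar alkaline phosphatase, as well as VTC2 (0.08 ± 0.04) and GIT1 (-0.00 ± 0.03). VTC2 did pass with median centring, at 0.29 (limma adjusted p = 8.19e-05), and with an intensity-trend prior (limma adjusted p = 0.0413). PHM7 was lower (-0.19 ± 0.04), with a red signal well above background on 1 array only.

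The genes that control Pho4 moved in both directions and by less than PHO5, PHO11 and PHO12. PHO4 itself was higher, at 0.63 on array 1 and 0.58 on array 2 on the log2 scale (mean 0.60 ± 0.04, SE, n = 2; limma adjusted p = 1.87e-09). The cyclin gene PHO80 was also higher (0.36 ± 0.03, adjusted p = 2.70e-07 by limma), and the kinase gene PHO85 was lower (-0.37 ± 0.04, adjusted p = 5.97e-07 by limma). PHO2, whose protein binds promoters together with Pho4, had -0.01 ± 0.04 and did not pass. Of these 5 listed genes, PHO81 included, 2 were higher and 1 was lower, with a median of 0.01, where 36.4% of all genes tested were higher and 36.7% lower. PHO4, PHO80 and PHO85 did not pass against a 1.5-fold change (limma treat).

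Inositol pyrophosphates, small molecules that help to signal phosphate status to Pho81, are made by Kcs1 and Vip1. Of 6 listed enzymes of this branch 5 were tested, 1 was higher and 2 were lower, with a median log2 ratio of -0.08, beside 36.4% higher and 36.7% lower among all genes tested. The pyrophosphatase gene DDP1 was higher by 0.15 ± 0.03, and VIP1 (-0.14 ± 0.04) and ARG82 (-0.10 ± 0.04) were lower. The call of ARG82 ended with the scanner software's log ratio (limma adjusted p = 0.0628), the series table and pixel medians. KCS1 (-0.08 ± 0.04) and IPK1 (-0.08 ± 0.04) did not pass, and PLC1 was not tested. KCS1 passed under 4 alternatives and turned to 0.02 with median centring, and IPK1 passed under 6.

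The PHO5 promoter is a textbook case of chromatin that opens on induction, and 20 genes of remodelling, acetylation and histone-chaperone factors were listed for it. Of these 17 were tested, 7 were higher, 6 were lower and 4 did not pass, with a median log2 ratio of 0.01. The shares of 41.2% higher and 35.3% lower lay near the 36.4% and 36.7% of all genes tested. The 4 largest were SIN3 (-0.57 ± 0.03, SE, n = 2), a subunit of a histone deacetylase complex, SPT3 (-0.56 ± 0.04) of the SAGA coactivator, the histone chaperone ASF1 (0.50 ± 0.03) and SNF5 (-0.48 ± 0.03) of the SWI/SNF remodeller.

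Genes of thiamine synthesis and uptake, the pathway to which PHO3 belongs, were listed beside PHO3. Of 21 listed genes 20 were tested, 7 were higher, 6 were lower and 7 did not pass, with a median log2 ratio of 0.03, against 0.52 for PHO3 with its marked spot kept. Of all genes tested 36.4% were higher and 36.7% lower. PDC2, a transcription factor of the pathway, was lower by limma, with a log2 ratio of -0.51 ± 0.03 (SE, n = 2), and THI3, its sensor of thiamine pyrophosphate, was not tested and had -0.68 ± 0.03 with a marked spot kept. The other genes named by the size of their ratio were THI20 (-0.63 ± 0.03) and THI6 (-0.39 ± 0.04), both of thiamine synthesis, PET18 (-0.40 ± 0.04), SNZ3 (-0.35 ± 0.04) and SNO3 (0.31 ± 0.04). The highest log2 ratio of the list, that of SNO3, lay below both values of PHO3. THI5, THI11, THI12 and THI13 are near-identical copies, and their probes may share RNA.

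**Figure D5:**
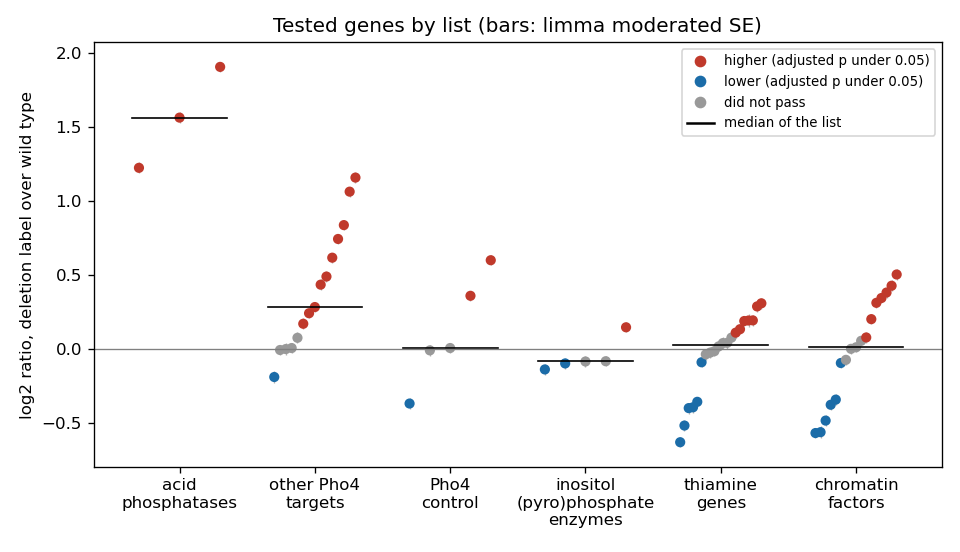
Log2 ratio (RNA labelled as deletion over wild type) of each tested gene by list, coloured by its call at an adjusted p of 0.05, with limma's moderated SE as bars, mostly hidden by the points, and the median of each list as a line. The medians are 1.56 for the 3 tested acid phosphatases, 0.29 for other Pho4 targets, 0.01 for Pho4 control, -0.08 for the inositol enzymes, 0.03 for thiamine genes and 0.01 for chromatin factors.

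Genes beside the acid phosphatases on the chromosomes were taken in the gene order of the RefSeq table of assembly R64. Their ratios were smaller than those of PHO5, PHO11 and PHO12. Only 0.0886% of all genes tested reached the ratio of PHO12, so this says little about the neighbours. Of 10 genes up to 2 places away, 2 have no probe matched here, and of the 8 tested 3 were higher, 4 were lower and 1 did not pass, with a median log2 ratio of -0.06, against 36.4% higher and 36.7% lower of all genes tested. PBY1, next to PHO5 and read away from it on the opposite strand, was higher by 0.42 ± 0.03 (SE, n = 2), and RXT2 beyond it by 0.29 ± 0.03. On the other side of the PHO3 and PHO5 pair, TIM12, for mitochondrial import, was lower (-0.45 ± 0.03), as was YBR090C (-0.13 ± 0.04). The call of YBR090C ended with the scanner software's log ratio (limma adjusted p = 0.0558) and with the series table (limma adjusted p = 0.0571). PHO5, with 1.91, thus stands between PHO3 (0.52 with its marked spot kept) and PBY1 (0.42).

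The measured neighbours of both subtelomeric members had smaller ratios than these members as well, as nearly all genes tested did. Beside PHO11, the last gene of chromosome I in the table, YAR068W had 0.00 ± 0.04 and did not pass, and YAR066W was lower (-0.25 ± 0.04). Beside PHO12, IMD2, a gene of the IMP dehydrogenase family, was lower (-0.16 ± 0.03) and YHR218W was higher (0.41 ± 0.03). The direction of IMD2 turned with pixel medians in place of pixel means, to 0.05 with limma adjusted p = 0.249.

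RNA was measured from whole cultures, so more cells with induced acid phosphatase genes and more RNA in each cell cannot be told apart.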

How the data were processed

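The deposited scanner files hold spot intensities of 2 channels and quality flags, written by Agilent Feature Extraction 9.5.3.1 per the file headers (9.3.2.1 per the submitters' processing notes). Their log10 ratio of red over green, after the software's LOWESS dye normalisation, and the p-value of that ratio are likewise as deposited. The authors' series table of log2 values, 1 per probe, matched these ratios in scale and direction (r = 0.994 and 0.990), and how its spots were averaged is unknown. Mean signals were corrected with normexp (offset 50) and normalised by loess, control spots at weight 0, in limma 3.58.1 (R 4.3.3). Spots marked as outliers were left out and the spots of a probe averaged. The 5641 genes that stood well above background in either channel on each array were tested against 0 with eBayes, adjusted by Benjamini-Hochberg over all of them, at 0.05; standard errors of ratios are eBayes moderated. The script was tested on simulated data. Alternatives changed background correction, normalisation, flags, filters, prior and source values.

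The files name no genome build, and coordinates are left out; names and gene order came from RefSeq R64, which held 5756 of 6256 systematic names. Members and lists were chosen with earlier results of these data known. The rule for named genes took the members, DIA3, YDR374C, all measured genes of the Pho4 target, Pho4 control and inositol enzyme lists, the 4 and 6 largest of the chromatin and thiamine lists with 1 sign on both arrays, strain check genes, neighbours up to 2 places away and the 3 genes nearest each member by ratio; 1 gene that the rule takes is not reported here.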

Additional observations from a re-analysis of the deposited data

How the results depend on the processing

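PHO5, PHO11 and PHO12 kept their direction under all 18 alternatives each, 5 of them chosen after seeing the data, and their call under the 16 with a test, with log2 ratios of 1.80 to 2.09, 1.53 to 1.64 and 1.17 to 1.28; the 2 alternatives that leave out 1 array are values with no test. They gave 1.88 and 1.93 for PHO5, 1.53 and 1.60 for PHO11 and 1.17 and 1.28 for PHO12. Alternatives that changed only flags, filters, prior or the tested fold change left the ratios of PHO5, PHO11 and PHO12 as reported. Some others repeated the ratios of another alternative, so the 18 are not separate checks of direction. PHO3 had no test in the reported fit (0.43 on array 1) and passed wherever its marked spot was kept: 0.52 with the reported processing, and, in settings chosen after seeing the data, 0.53 with the scanner software's log ratio, 0.64 with median centring, 0.54 with pixel medians and 0.53 with the series table over all its probes. Counts of all genes, 2051 higher and 2073 lower, fell to 40 and 42 against a 1.5-fold change. They fell to 144 and 142 by the scanner software's p, which had to be below 0.01 for every kept spot on both arrays. That rule differs from limma's in its error, its cutoff and its lack of adjustment, and their shares in the drop were not separated. Of 783 tested alternative values for 49 other genes, 721 stayed on their side of the threshold, among them 19 of 6 uncalled genes whose sign changed. A call was lost in 47, 33 of them against a 1.5-fold change, and gained in 13, and 2 called values reversed, both of IMD2 (0.051 with pixel medians, marked spots left out or kept; the cause was not tested). Of 98 values from 1 array, with no test, 6 changed sign, none of a called gene. No paired analysis was possible because the 2 arrays form 1 group, which leaves no second group to share their replicate numbers; the ratio within an array already sets the strains against each other. A leave-one-out test, and the spread of the cultures, cannot be had from 2 arrays, whose number limits the precision.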
